A study of Rattus norvegicus with 40 samples.

Results

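Oxidative phosphorylation was followed through 78 nuclear genes of the respiratory chain and the ATP synthase in rat hippocampus after lead exposure during development. The members were the genes whose single symbol in the array's probe annotation begins with Ndufa, Ndufb, Ndufc, Ndufs, Ndufv, Uqcr, Cox4 to Cox8 or Atp5, together with Sdha, Sdhb, Sdhc and Sdhd. They are 78 of 14506 genes with a probe set of their own on the array, and each was read from 1 of the 29214 probe sets, the one of highest mean signal. All 78 matched a RefSeq gene of the same symbol. The names chose 35 genes of complex I, 4 of complex II, 7 of complex III, 16 of complex IV and 16 of complex V, the ATP synthase. Not all encode subunits: Ndufaf1, Ndufaf3 and Ndufaf4 are assembly factors of complex I, Cox7a2l is a supercomplex factor and Atp5if1 is the inhibitor of the ATP synthase. Ndufs6-ps1 and Cox6c-ps1, named as pseudogenes, were left out.

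Hippocampal RNA was hybridised to 40 Affymetrix gene arrays, 1 per sample, in 10 groups of 4. The groups were male and female controls on lead-free chow, and males and females whose chow held 250 or 750 ppm lead acetate in either a perinatal or a postnatal window. Perinatal exposure began in the dams 10 days ahead of breeding and ended when the pups were weaned onto control chow. In the postnatal window lead was given from birth to postnatal day 45. All animals were killed at postnatal day 55, so every exposed group had eaten control chow before tissue was taken. Strain, litter and blood lead were not given in the labels, and p-values therefore measure only the spread between these samples. The values are log2 signals as the authors deposited them, so a difference of 1 is a doubling.

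The tissue label and the arrays were checked before the genes were compared. All 11 hippocampal neuron markers were measured, with a mean signal of 11.05 log2, and the 11 measured genes of skeletal or heart muscle had a mean of 5.98. The X-linked gene Eif2s3 went against the sex label on 3 control arrays, male replicate 4 and female replicates 1 and 3. A further 3 arrays, male perinatal 250 ppm replicates 1 and 3 and male perinatal 750 ppm replicate 1, had the lowest slopes against the mean of all arrays (slope minus 1 of -0.0191, -0.0314 and -0.0325). Several differences described gene by gene are also given without these arrays. Sample numbers in the titles ran from 1970 to 1981 for both control groups and the perinatal 750 ppm females, from 3444 to 3447 for the perinatal 750 ppm males and from 2821 to 2876 for the other 6 groups. For 7 of the 8 exposed groups the number range and the lead exposure cannot be told apart. In tissue RNA, fewer cells of a type and less RNA per cell cannot be told apart either.

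Complexes I and II pass electrons from NADH and succinate to ubiquinone, complex III passes them to cytochrome c, and complex IV reduces oxygen. Complexes I, III and IV pump protons across the inner mitochondrial membrane, and the ATP synthase uses the resulting gradient to make ATP. Neurons draw most of their ATP for ion pumping and synaptic transmission from this pathway, and the nuclear genes measured here share the work with subunits encoded in mitochondrial DNA, which were not analysed here.

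The promoters of these genes carried letters of transcription factor motifs long tied to respiratory genes more often than promoters in general. RefSeq promoter windows on the GRCr8 build, from 250 bases before to 50 bases after the start, were at hand for 70 of the 78 genes. Atp5pd, Cox4i2, Cox6a1, Cox6c, Ndufa8, Ndufb9, Uqcr11 and Uqcrb had no window. On both strands, GCGC followed by any base and TGCGC, the core of the nuclear respiratory factor NRF1 motif, stood in 14 of 70 windows (20%) and in 4.25% of all 33469 windows. CCGGAAG, read by ETS factors such as GABP, stood in 21 of 70 (30%) and in 8.75% of all. AAGATGGC, the YY1 motif, stood in 13 of 70 (18.6%) and in 3.17% of all, while TATAAA stood in 5 of 70 (7.14%) and in 14.2% of all. At least 1 of NRF1, ETS and YY1 letters stood in 40 of 70 windows (57.1%) and in 14.6% of all, and 1 member window held both NRF1 and ETS letters. A match is a description of letters and not a bound site. The 120 bases before the start are printed for 9 genes that the results below turn on, with the matches in capitals. Ndufb10 and Ndufb2 come first because the account of complex I turns on them, and no match stood in their stretch.
Ndufb10 (chr10:14255967-14256086, minus strand): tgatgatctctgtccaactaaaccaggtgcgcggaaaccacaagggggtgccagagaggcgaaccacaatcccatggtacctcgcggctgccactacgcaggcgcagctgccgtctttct
Ndufb2 (chr4:69334187-69334306, plus strand): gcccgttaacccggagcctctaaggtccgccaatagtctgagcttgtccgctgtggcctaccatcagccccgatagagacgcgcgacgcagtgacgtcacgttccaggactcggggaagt
NRF1 letters stood in the stretches of Ndufa12 and Ndufa5, accessory subunits of complex I, and at 2 places in that of Sdha, the catalytic subunit of complex II.
Ndufa12 (chr7:30658196-30658315, plus strand): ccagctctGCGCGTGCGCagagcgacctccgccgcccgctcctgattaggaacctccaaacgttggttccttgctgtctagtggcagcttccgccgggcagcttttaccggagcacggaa
Ndufa5 (chr4:53971236-53971355, minus strand): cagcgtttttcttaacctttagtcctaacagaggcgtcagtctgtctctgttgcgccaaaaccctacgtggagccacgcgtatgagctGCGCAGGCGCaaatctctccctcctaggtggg
Sdha (chr1:30764433-30764552, plus strand): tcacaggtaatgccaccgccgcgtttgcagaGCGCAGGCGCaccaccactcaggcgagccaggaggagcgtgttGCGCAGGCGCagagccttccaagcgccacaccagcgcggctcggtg
ETS letters stood in the stretches of the complex III genes Uqcrc2 and Uqcrq, of Cox7a2 of complex IV and of Atp5pf of the ATP synthase, which also held the YY1 letters.
Uqcrc2 (chr1:184599120-184599239, plus strand): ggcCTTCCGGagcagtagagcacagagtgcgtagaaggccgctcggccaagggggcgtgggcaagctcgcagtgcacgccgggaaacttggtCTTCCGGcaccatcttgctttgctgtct
Uqcrq (chr10:38089979-38090098, minus strand): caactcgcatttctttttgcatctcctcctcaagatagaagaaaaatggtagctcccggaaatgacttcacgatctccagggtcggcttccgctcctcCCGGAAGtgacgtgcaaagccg
Cox7a2 (chr8:89601150-89601269, minus strand): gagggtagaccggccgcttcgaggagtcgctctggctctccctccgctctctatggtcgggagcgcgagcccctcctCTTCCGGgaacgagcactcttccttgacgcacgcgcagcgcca
Atp5pf (chr11:37375102-37375221, minus strand): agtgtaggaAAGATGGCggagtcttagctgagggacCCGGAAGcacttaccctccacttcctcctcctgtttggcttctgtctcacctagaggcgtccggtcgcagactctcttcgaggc

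In the fit of group means alone, lead exposure was not accompanied by a called change of any of the 78 genes. Fits that add the sample-number position, chosen after seeing the data, called single members and are described in the closing section. In none of the 8 exposures, each set against the control group labelled with that sex, did any of the 78 genes pass the limma test at an adjusted p under 0.05, and the smallest adjusted p of a member was 0.319 (Cox7a2, postnatal 750 ppm males). Over all probe sets the shares called were 0.089%, 0.0582%, 0.0342% and 0.0445% in males (perinatal 250 and 750 ppm, then postnatal 250 and 750 ppm) and 0.0171%, 0.157%, 0.0171% and 0.0137% in females, so a share of 0 among 78 genes lies near the background. At an unadjusted p under 0.05 the members numbered 4, 6, 9 and 6 in males, where 7.11%, 7.77%, 6.03% and 9.51% of all probe sets passed, and 3, 2, 0 and 3 in females, where 5.6%, 5.81%, 3.64% and 3.58% passed. A moderated F test over the 8 exposures called 0 members, with 4 at an unadjusted p under 0.05 (5.13% of the members, against 9.66% of all probe sets, of which 0.489% were called). The 4 were Ndufb2, Ndufb4, Uqcrb and Ndufa12.

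The intervals around the differences were narrow, so they bound how large a change could have been. In the comparison of all exposed groups with both control groups, the 95% interval lay within a 1.2-fold change in either direction for 77 of 78 genes. In the single exposures this held for 61 to 66 of 78 genes, and the interval lay within 1.5-fold for 77 or 78. A p that misses the threshold does not show that the levels were the same.

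The directions of the small differences were not shared by all exposures. In perinatal 250 ppm males 20 of 78 genes lay above controls (54.1% of all probe sets did) and the median difference was -0.028 log2. In perinatal 750 ppm males 28 of 78 lay above (57.7% of all), with a median of -0.031. Postnatal males leaned the other way, with 43 of 78 above controls at 250 ppm (48% of all, median 0.013) and 52 of 78 at 750 ppm (45.5% of all, median 0.021). In females 24 of 78 lay above controls after perinatal 250 ppm (53.5% of all, median -0.033), 44 after perinatal 750 ppm (50.3%, median 0.012), 39 after postnatal 250 ppm (49.5%, median 0.000) and 31 after postnatal 750 ppm (52.7%, median -0.008). Probe sets with means between 9.49 and 11.50 log2, the middle range of the members, split differently from all probe sets: 45.5% and 50.9% of 4295 lay above controls in the perinatal males and 55.8% and 63.2% in the postnatal males. The 38 members in that range lay above controls in 10, 12, 21 and 27 cases. Without the 3 arrays of lowest slope, 42 of 78 genes lay above controls in perinatal 250 ppm males (median 0.003) and 35 of 78 in perinatal 750 ppm males (median -0.006). Bright probe sets read low on an array of low slope, and 73 of the 78 genes were brighter than the median probe set. Leaving out arrays picked by low slope therefore tends to raise these counts by construction. The count in perinatal 250 ppm males was also 32 without male control replicate 3, and that in perinatal 250 ppm females was 37 without their replicate 3. Without the 3 controls that went against their sex label the counts in males were 24, 29, 45 and 48.

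**Figure D1:**
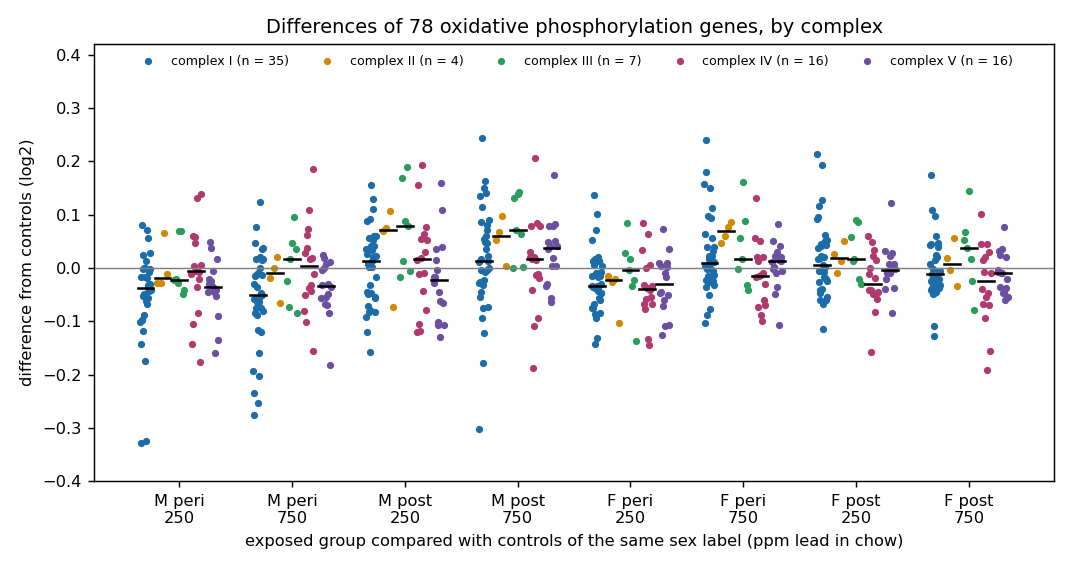
Difference from the controls of the same sex label (log2, vertical axis) for each of the 78 genes, 1 point per gene, in the 8 exposures (horizontal axis), coloured by complex, with black bars at the median of each complex. The points of every complex lie on both sides of 0 over the 8 exposures, no point passed the test, and the lowest, Ndufa10 and Ndufb2 in perinatal 250 ppm males, read -0.33 and -0.32.

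Complex I takes electrons from NADH through a core that holds its flavin and iron-sulphur clusters. The 6 core genes measured (Ndufs1, Ndufs3, Ndufs7, Ndufs8, Ndufv1 and Ndufv2) differed from controls by -0.12 to 0.11 log2 over the 8 exposures. Ndufs3, a core subunit of the peripheral arm, gave both extremes, -0.12 in perinatal 750 ppm males and 0.11 in perinatal 750 ppm females. Without male control replicate 1 the first was -0.08, and without female control replicate 1 the second was 0.06. Ndufs7, which carries the last cluster before ubiquinone, read 11.86, 11.85, 11.81 and 11.82 log2 in postnatal 750 ppm males and 11.94, 11.90, 11.86 and 11.94 in male controls. Every exposed array lay below every control, by a difference of -0.07 log2.

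Ndufb10, an accessory subunit in the membrane arm, lay below controls in all 8 exposed groups. It was 1 of 4 members that did so, the 8 groups share 2 control groups, and the share of all probe sets that did so was not counted. Over the 8 control arrays its signal had a lowest value of 10.47, a median of 10.59 and a highest of 10.71 log2. Over the 32 exposed arrays these were 10.29, 10.46 and 10.74, and 30 of the 32 lay below the control median. The mean of the exposed groups was 0.12 log2 below that of controls (difference -0.12, SE 0.03, 95% interval -0.19 to -0.05, adjusted p = 0.170), which did not pass, and 2 of 78 members and 7.66% of all probe sets had an unadjusted p under 0.05 in this comparison (0.38% were called). The other was Uqcrc2, below. Within each of the 4 sample-number positions explained further on, the exposed arrays averaged below controls, by -0.09, -0.16, -0.10 and -0.11. These values divide the same arrays that gave the pooled difference and are no separate support for it. A fit with that position as a replicate block, chosen after seeing the data, called Ndufb10 in this comparison, as given in the closing section. The difference was -0.13 without the 3 mismatched controls (adjusted p = 0.316) and -0.11 without the 3 arrays of lowest slope (adjusted p = 0.190).

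In males Ndufb10 read 10.58, 10.62, 10.52 and 10.71 in controls. It read 10.48, 10.50, 10.29 and 10.46 after perinatal 250 ppm and 10.39, 10.50, 10.43 and 10.64 after perinatal 750 ppm. The perinatal 250 ppm arrays all lay below the controls, and those at 750 ppm overlapped them. After postnatal exposure it read 10.43, 10.44, 10.43 and 10.49 at 250 ppm and 10.44, 10.43, 10.36 and 10.49 at 750 ppm, all below the lowest control. The differences of the 3 groups that did not overlap controls were -0.17, -0.16 and -0.18 (SE 0.06 each, adjusted p = 0.449, 0.713 and 0.372). Without the mismatched male control, which was the highest, they were -0.14, -0.12 and -0.14, and without the arrays of lowest slope the first was -0.13. In females the controls read 10.53, 10.63, 10.47 and 10.61, and the postnatal 750 ppm arrays 10.51, 10.36, 10.34 and 10.52, a difference of -0.13 with overlapping groups, and -0.19 without the mismatched female controls. Groups without overlap were counted in every exposure. In males there were 2, 3, 2 and 8 such members of 78 (perinatal 250 and 750 ppm, postnatal 250 and 750 ppm), against 2.66%, 3.59%, 3.09% and 5.13% of all probe sets. In females there were 0, 2, 0 and 2, against 3.36%, 4%, 2.29% and 2.44%.

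**Figure D2:**
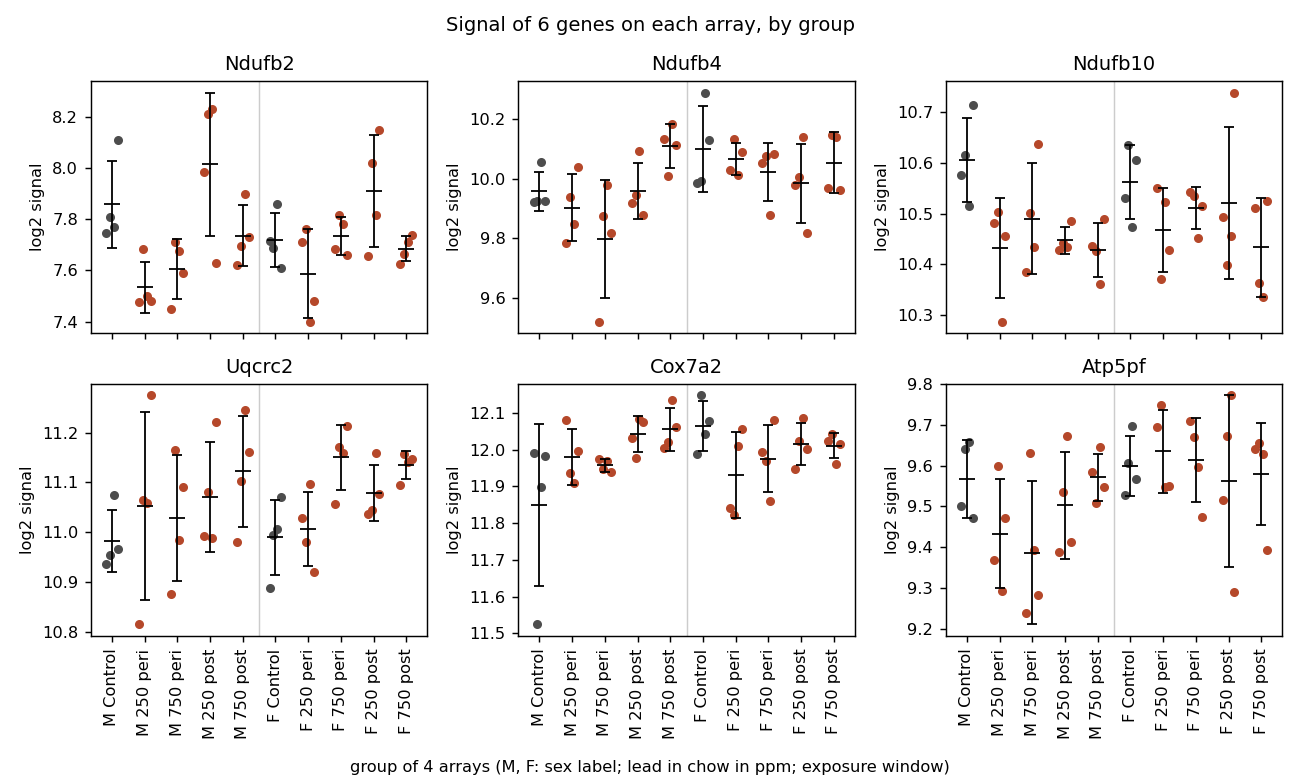
Log2 signal (vertical axis) of Ndufb2, Ndufb4, Ndufb10, Uqcrc2, Cox7a2 and Atp5pf in the 10 groups, 1 point per array, with bars for the mean and SD of 4 arrays. Ndufb10 lies lower and Uqcrc2 higher in every exposed group than in the controls of its sex label, with overlap in most groups, and 1 male control array of Cox7a2 stands at 11.52.

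Ndufb2, another membrane-arm accessory subunit, gave the largest difference of any member between exposure windows. It read 7.74, 7.81, 7.77 and 8.11 log2 in male controls, 7.48, 7.68, 7.50 and 7.48 after perinatal 250 ppm and 7.45, 7.71, 7.67 and 7.59 after perinatal 750 ppm. Both perinatal groups lay below every control array. The differences were -0.32 (SE 0.11, adjusted p = 0.421) and -0.25 (SE 0.11, adjusted p = 0.555), and they were -0.24 and -0.17 without the 3 mismatched controls, 1 of which, male replicate 4, was the highest control. Without the 3 arrays of lowest slope they were -0.28 and -0.20. Postnatal males read 7.98, 8.21, 8.23 and 7.63 at 250 ppm and 7.62, 7.70, 7.90 and 7.73 at 750 ppm, and both groups overlapped the controls. Between the windows at 250 ppm the male difference was 0.48 log2 (postnatal minus perinatal, SE 0.11, 95% interval 0.26 to 0.70, adjusted p = 0.232), with 1 postnatal array, at 7.63, inside the perinatal range. It passed without postnatal replicate 4 (0.61, adjusted p = 0.0157), and its adjusted p was 0.995 without the 3 arrays of lowest slope (0.43). Females showed a difference of the same sign, with 7.71, 7.76, 7.40 and 7.48 after perinatal and 7.66, 8.02, 7.82 and 8.15 after postnatal 250 ppm (0.32, SE 0.11, adjusted p = 0.504), and the groups overlapped.

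Ndufb4, a further accessory subunit of the membrane arm, had the smallest adjusted p of any member in the 22 comparisons made. It read 9.52, 9.88, 9.98 and 9.82 log2 in perinatal 750 ppm males and 10.13, 10.01, 10.18 and 10.11 in postnatal 750 ppm males, with no overlap. The difference, 0.31 (SE 0.08, 95% interval 0.15 to 0.47, adjusted p = 0.085), fell short of the threshold. The lowest of these arrays, at 9.52, was the one of lowest slope, and without the 3 arrays of lowest slope the difference was 0.22 (adjusted p = 0.334). Leaving out perinatal replicate 2 or 3 instead brought it past the threshold (0.34, adjusted p = 0.0451, and 0.37, adjusted p = 0.0359). Male controls read 9.92, 9.93, 10.06 and 9.93 and overlapped both groups. Its other probe set gave 0.27 for the same comparison (adjusted p = 0.152) and followed the first over the 40 arrays (r = 0.94).

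Among the other accessory subunits, Ndufa6, a small subunit of the LYR family, read 9.06, 8.80, 9.22 and 8.99 in female controls and 9.26, 9.14, 9.07 and 9.32 in perinatal 750 ppm females (0.18, SE 0.07, adjusted p = 0.583). The groups overlapped, and 1 control array, replicate 2, stood at 8.80. The difference was 0.11 without that array and 0.30 without the 2 mismatched female controls. In perinatal 750 ppm males it read 9.10, 8.95, 9.07 and 9.18 against 9.17, 9.08, 9.15 and 9.24 in controls, so the female difference minus the male difference was 0.26 (adjusted p = 0.593), and 0.36 without the mismatched controls. Ndufa12 read 10.39, 10.42, 10.55 and 10.44 in postnatal 750 ppm males and 10.34, 10.20, 10.34 and 10.39 in male controls (0.13, SE 0.05, adjusted p = 0.431). The groups did not overlap, but the lowest exposed and the highest control array both round to 10.39, and the difference was 0.16 without the mismatched control. Ndufb3 was lower in perinatal 750 ppm males than in controls (8.69 ± 0.13 against 8.89 ± 0.06, mean ± SD, n = 4, difference -0.20, adjusted p = 0.581, and -0.16 without the array of lowest slope), and Ndufb9 higher in postnatal 750 ppm males (0.14, adjusted p = 0.384, and 0.16 without the mismatched control). Ndufa10 had the largest spread of all members and the largest difference of any exposure, -0.33 in perinatal 250 ppm males (unadjusted p = 0.114), which was -0.18 without the arrays of lowest slope. In postnatal 750 ppm males it differed by -0.30 (unadjusted p = 0.144), and by -0.07 without replicate 4. It read 7.87, 8.04, 7.86 and 7.35 in female controls and 6.94, 8.01, 7.91 and 7.87 in perinatal 750 ppm females. A single exposed array stood far below the others, at 6.94. Among the assembly factors, Ndufaf1 in postnatal 750 ppm males lay above controls without overlap (0.24, and 0.15 without exposed replicate 3).

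Succinate dehydrogenase, complex II, also serves the citric acid cycle, and all 4 of its subunits are nuclear genes. Their differences from controls ran from -0.10 to 0.11 log2 over the 8 exposures, and 1 of 32 (Sdhc in postnatal 250 ppm males, 0.11, adjusted p = 0.827, and 0.07 without exposed replicate 3) had an unadjusted p under 0.05. Sdha, the flavoprotein that oxidises succinate, read 10.43, 10.46, 10.49 and 10.42 in male controls and 10.34, 10.55, 10.60 and 10.52 in postnatal 750 ppm males. It read 10.40, 10.52, 10.50 and 10.44 in female controls and 10.44, 10.59, 10.55 and 10.47 in perinatal 750 ppm females. The groups overlapped in each case, and the largest difference of Sdha in any exposure was 0.07. All 4 genes lay above controls in perinatal 750 ppm females (0.05 to 0.09) and in postnatal 750 ppm males (0.00 to 0.10), and all 4 below in perinatal 250 ppm females (-0.10 to -0.02). Without the mismatched control Sdhd lay below controls in the postnatal 750 ppm males (-0.05).

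In complex III, Uqcrc2, a core protein of the matrix side, was the only member that lay above controls in all 8 exposed groups, and without the mismatched controls it did so in 7 of 8, with -0.03 in perinatal 250 ppm females. Over the 8 control arrays its lowest, median and highest signals were 10.89, 10.98 and 11.07 log2. Over the 32 exposed arrays they were 10.81, 11.09 and 11.28, and 27 of 32 lay above the control median. The difference was 0.09 (SE 0.04, 95% interval 0.02 to 0.17, adjusted p = 0.483), which read 0.07 when the mismatched controls were left out and 0.12 when the 3 arrays of lowest slope were. The 4 sample-number positions, which divide the same arrays, gave 0.06, 0.13, 0.05 and 0.14. The 8 exposures share 2 control groups, and the share of all probe sets with 1 sign in all 8 was not counted. The arrays of postnatal 750 ppm females read 11.09, 11.16, 11.14 and 11.15 and those of their controls 10.89, 10.99, 11.01 and 11.07, which did not overlap (0.15, SE 0.07, and 0.10 without the mismatched controls). Perinatal 750 ppm females read 11.06, 11.17, 11.16 and 11.21, of which 1 array lay within the control range (0.16, SE 0.07, adjusted p = 0.751, and 0.12 without those controls). Uqcrc1, the partner core protein, differed by -0.03 to 0.07 over the 8 exposures. Uqcrfs1, the Rieske iron-sulphur protein, differed by -0.03 to 0.19, and Uqcrb, a ubiquinone-binding subunit, read 11.70, 11.65, 11.75 and 11.73 in postnatal 250 ppm males against 11.54, 11.38, 11.63 and 11.59 in controls (0.17, SE 0.07, adjusted p = 0.779, and 0.19 without the mismatched control). Those Uqcrb groups did not overlap, and both other probe sets of the gene followed the first (r = 0.98 each).

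Complex IV, cytochrome c oxidase, holds nuclear subunits around a mitochondrially encoded core, and several have isoforms limited to certain tissues. Cox7a2, the isoform of non-contractile tissue, had the smallest adjusted p of the exposures, and 1 control array decided its size. Male controls read 11.99, 11.52, 11.90 and 11.98 log2 and postnatal 750 ppm males 12.004, 12.021, 12.135 and 12.063, with no overlap (0.21, SE 0.06, adjusted p = 0.319). Without the control array at 11.52, replicate 2, the difference was 0.10 (adjusted p = 0.847), and without the 3 mismatched controls it was 0.25 (adjusted p = 0.208). Postnatal 250 ppm males read 12.03, 11.98, 12.08 and 12.08 (0.19), and 0.09 remained without that array. Female controls read 11.99, 12.15, 12.04 and 12.08 and perinatal 250 ppm females 11.84, 11.82, 12.01 and 12.06 (-0.13, adjusted p = 0.888, and -0.18 without the mismatched controls). The female differences minus the male differences were -0.26, -0.20, -0.24 and -0.26 for perinatal 250, perinatal 750, postnatal 250 and postnatal 750 ppm, all measured against the same controls (adjusted p = 1, 0.670, 1 and 0.996). Without male control replicate 2, the 4 values were -0.16, -0.09, -0.13 and -0.15, and without the mismatched controls -0.36, -0.29, -0.34 and -0.35.

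Of the other broadly expressed subunits of complex IV, Cox7b, a small subunit encoded on the X chromosome, read 10.89, 10.91, 10.76 and 10.99 in postnatal 750 ppm females and 11.05, 11.02, 11.03 and 11.22 in their controls. The groups did not overlap (-0.19, SE 0.08, adjusted p = 1, and -0.23 without the mismatched controls), and 2 of 78 members and 2.44% of all probe sets showed such a gap in that comparison. Cox4i1, the regulatory subunit whose isoform switches with oxygen supply, differed by -0.08 to 0.06 and Cox5a by -0.07 to 0.16 over the 8 exposures. Cox6c was the steadiest member (SD within groups 0.0354 log2): 12.87, 12.84, 12.92 and 12.85 in perinatal 750 ppm females, 12.81, 12.83, 12.80 and 12.84 in female controls and 12.84, 12.85, 12.70 and 12.75 in perinatal 250 ppm females. The first of these groups lay above the second without overlap, by 0.05, and by 0.04 without the mismatched controls. It lay above the third by 0.09 (SE 0.03, adjusted p = 0.317), and those groups overlapped. Ndufa4, named for complex I and now counted with complex IV, differed by -0.07 to 0.08.

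The 5 tissue-restricted isoforms (Cox4i2, Cox6a2, Cox6b2, Cox8b and Cox8c) had mean signals between 5.01 and 6.90 log2, where array medians lay between 6.96 and 7.06. None of them was called. Cox6a2, the isoform of heart and skeletal muscle that is also known from some interneurons, read 7.27, 6.95, 6.91 and 7.13 in perinatal and 7.05, 6.81, 6.75 and 6.66 in postnatal 750 ppm males (-0.25, SE 0.09, adjusted p = 0.174), with overlap, and the difference was -0.18 without the array of lowest slope. Cox8b lay below controls in all 8 exposures (-0.18 to -0.05), as did Ndufa5, Ndufb10 and Atp5f1b. These 4 genes and Uqcrc2 were the members with 1 sign in all 8 exposures, and the 8 share 2 control groups. Without the arrays of lowest slope Atp5f1b and Ndufa5 no longer had 1 sign, but 4 members lay below and 1 above in all 8. Without the mismatched controls Uqcrc2 no longer had 1 sign, but 6 members lay below and 4 above in all 8. Cox8b and Ndufb10 lay below controls in all 8 either way. The share of all probe sets with 1 sign was not counted.

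In the ATP synthase, Atp5f1b, the catalytic beta subunit, read 11.987, 12.003, 12.125 and 12.054 in male controls and 11.98, 12.02, 12.07 and 11.97 in postnatal 750 ppm males, with overlap. Its 8 differences ran from -0.05 to -0.00, those of Atp5f1a (alpha) from -0.06 to 0.03 and those of Atp5f1c (gamma) from -0.03 to 0.05. The 3 genes of the membrane c-ring, Atp5mc1, Atp5mc2 and Atp5mc3, differed by -0.11 to 0.07. Atp5pf, the coupling factor 6 subunit of the outer stalk, read 9.24, 9.63, 9.39 and 9.28 in perinatal 750 ppm males and 9.50, 9.64, 9.66 and 9.47 in controls (-0.18, SE 0.09, adjusted p = 0.631), with overlap, and the difference was -0.13 without the array of lowest slope. It had an unadjusted p under 0.05 between the sexes too: over the 16 arrays of exposed females its lowest, median and highest signals were 9.29, 9.63 and 9.77 log2, and over the 16 of exposed males 9.24, 9.49 and 9.67. The sex difference was 0.12 (SE 0.04, adjusted p = 0.224), and 0.09 without the arrays of lowest slope.

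Exposure windows were compared within sex and dose, without control arrays. In 750 ppm males 63 of 78 genes lay higher after postnatal than after perinatal exposure, with a median difference of 0.060 log2, while 41.4% of all probe sets did, with a median of -0.029. Of the members 17 had an unadjusted p under 0.05 (21.8%) and 0 were called, against 19.4% and 0.175% of all probe sets. Groups did not overlap for 9 members that were higher and 1 (Ndufs7) that was lower, against 2.69% and 6.3% of all. Per complex, 28 of 35, 4 of 4, 7 of 7, 10 of 16 and 14 of 16 genes lay higher. Ndufaf1 differed by 0.31, and by 0.16 without perinatal replicate 1, the array of lowest slope. Uqcrb differed by 0.20 (adjusted p = 0.155, and 0.23 without that array), Ndufa12 by 0.17 (adjusted p = 0.135) and Ndufs3 by 0.17 (adjusted p = 0.20, and 0.15 without it). At 250 ppm 59 of 78 genes lay higher after postnatal exposure in males (43.5% of all, median 0.028) and 59 of 78 in females (47.1% of all, median 0.029). Females at 750 ppm were the exception, with 24 of 78 higher (51.3% of all, median -0.017). In these 3 comparisons limma called 0 members (0.00342%, 0.0103% and 0.0548% of all), and 3, 2 and 0 had an unadjusted p under 0.05 (6.36%, 5.98% and 5.07% of all).

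Several array measures moved with the windows, and their part in these counts was not tested. Without the 3 arrays of lowest slope, all of them perinatal male arrays, the male counts were 55 of 78 at 750 ppm (median 0.035) and 42 of 78 at 250 ppm (median 0.014). Among probe sets of 9.49 to 11.50 log2, 59.1% lay higher in the postnatal 750 ppm males, 58.4% in the postnatal 250 ppm males, 54.6% in the postnatal 250 ppm females and 38% in the postnatal 750 ppm females, where 33, 31, 31 and 10 of the 38 members did. All 9 measured choroid plexus and ependyma markers lay higher after postnatal exposure in all 4 comparisons (males at 750 and 250 ppm, then females at 250 and 750 ppm), by medians of 1.53, 1.68, 1.49 and 0.97 log2, and 0 were called, since their median SD within groups was 1.74. Hippocampal neuron markers lay higher in 6, 6, 5 and 8 of 11, with medians of 0.004, 0.002, -0.004 and 0.037. Oligodendrocyte genes lay higher in 8, 0, 0 and 1 of 8, and red blood cell genes in 4, 2, 3 and 0 of 4. In 750 ppm males Alas2, of 4 measured red blood cell genes, rose by 0.94 (adjusted p = 0.00721) and Csf1r, of 6 measured microglial genes, by 0.22 (adjusted p = 0.0496). No other gene of the cell type lists was called there. The 2 windows at 750 ppm came from different ranges of sample numbers in both sexes, and at 250 ppm from 1 range.

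Dose and sex gave no calls among the members. The 750 ppm groups lay above the 250 ppm groups for 39 of 78 genes in perinatal males, 52 in postnatal males, 59 in perinatal females and 32 in postnatal females (53.4%, 46.1%, 47.2% and 52.6% of all probe sets). Limma called 0 members in each (0.0411%, 0.0103%, 0.0856% and 0% of all), and 1, 2, 6 and 2 had an unadjusted p under 0.05 (5.15%, 3.82%, 8.02% and 3.66% of all). In perinatal females the median was 0.044 log2, and the 6 genes were Cox6c, Ndufs3, Ndufa1, Uqcrc2, Sdhd and Ndufa2. Ndufs3 read 10.09, 9.99, 10.00 and 9.98 at 750 ppm and 9.96, 9.81, 9.65 and 9.94 at 250 ppm, which did not overlap (0.17, SE 0.07, adjusted p = 0.516), as for 3 of 78 members and 5.34% of all probe sets. Without 250 ppm replicate 3 the difference was 0.11. In the same comparison Alb and Apoc3, of the 3 liver genes measured, rose by 1.15 and 0.76 (adjusted p = 8.92e-06 and 0.00500). The remaining liver gene, Apoa1, was not called, and its means ran only from 5.72 to 5.91 log2 over the 10 groups. All 9 choroid plexus markers lay higher, by a median of 0.83, with 0 called. The part of these liver and choroid plexus genes in the members' count was not tested. The count in postnatal females was 50 without 250 ppm replicate 3, the array with the highest mean of the 78 genes. Between the sexes, the 4 exposed female groups lay above the 4 exposed male groups for 47 of 78 genes (47.5% of all), and for 34 of 78 without the 3 arrays of lowest slope. Of the members 4 had an unadjusted p under 0.05, Ndufb3 and Ndufb4 (0.13 and 0.09 higher in females), Atp5pf (0.12) and Cox6a2 (-0.13), which were 0.09, 0.04, 0.09 and -0.08 without the 3 arrays of lowest slope, against 13.4% of all probe sets, and 0 members and 0.0924% of all were called. Limma called none of the 78 in the tests of sex by lead at perinatal 250 and 750 and postnatal 250 and 750 ppm (0%, 0.0205%, 0% and 0% of all), where 2, 8, 2 and 2 had an unadjusted p under 0.05 (3.35%, 7.41%, 2.3% and 4.25% of all). There 40, 50, 37 and 28 of 78 lay above 0 (49.2%, 46%, 51.2% and 55.4% of all).

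Genes around the pathway were read from fixed lists. The first held cytochrome c, electron transfer flavoprotein genes, and carriers and channels of the inner and outer membrane (10 measured). The others were assembly factors outside the member rule (25), pyruvate dehydrogenase and citric acid cycle enzymes (13), regulators of mitochondrial gene expression (15) and cytosolic ribosomal proteins (49). The ribosomal list was mostly of the large subunit. Its filter against pseudogene names also dropped symbols of Rps followed only by digits, and it kept Rps19bp1, named as a binding protein. None of their genes was called in any of the 22 comparisons or in the F test over exposures. At an unadjusted p under 0.05 the F test marked 1, 3, 0, 0 and 5 of them, against 9.66% of all probe sets. In postnatal minus perinatal 750 ppm males 8 of 10 genes of the first list, 19 of 25 assembly factors, 7 of 13 cycle enzymes and 10 of 15 regulators lay higher, with medians of 0.062, 0.066, 0.011 and 0.045 log2. So did 40 of the 49 genes of the ribosomal list (0.071). Of the oligodendrocyte genes, 8 of 8 lay above controls in the comparison of all exposed groups, with a median of 0.192, and Cldn11, Cnp, Mag, Mog and Ugt8 rose (0.17 to 0.26, adjusted p = 0.00193 to 0.0410). The members' median in that comparison was -0.00, with 39 of 78 above 0.

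The order of sample numbers within a group went with the signal of many members. The 4 titles of every group carry consecutive numbers, and each array was given its position in that run, 1 to 4. This grouping was chosen after the values of Atp5mg were seen. An F test over positions, with the group means kept in the model, called 33 of 78 members (42.3%) and 3335 of 29214 probe sets (11.4%). Brightness goes along with this: among probe sets of 9.49 to 11.50 log2 the shares were 22 of 38 members (57.9%) and 30.9% of 4295. The called members numbered 12 of complex I, 3 of 4 of complex II, 4 of 7 of complex III, 5 of complex IV and 9 of complex V. Of the 33, 21 were higher at positions 2 and 3 than at 1 and 4, and 12 were lower. Of the ribosomal list, mostly large-subunit genes, 23 of 49 (46.9%) were called, and of the citric acid cycle genes 9 of 13. While no array is left out, each group has 1 array at each position, so positions widen the spread without shifting a difference between groups. Differences given without certain arrays are no longer balanced over positions and can shift with them. Uqcrc2, for example, was lowest at position 1 in 9 groups, and female control replicate 1, a mismatched control, stood at position 1. The part of position in the values given without arrays was not tested.

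Atp5mg, a small membrane subunit of the ATP synthase that supports its dimers, showed the pattern most plainly. Its lowest, median and highest signals over the 10 arrays of a position were 9.21, 9.46 and 9.61 log2 at position 1, 9.07, 9.22 and 9.51 at position 2, 8.83, 9.09 and 9.37 at position 3, and 9.48, 9.73 and 9.86 at position 4. Position 4 held the highest array of the group in 10 of 10 groups. In male controls, for example, the 4 arrays read 9.55, 9.34, 9.02 and 9.67. Uqcrq, a small subunit of complex III, was also highest at position 4 in 10 of 10 groups, with 10.88, 10.78, 10.71 and 10.91 in male controls and 10.87, 10.74, 10.67 and 10.97 in female controls, and lowest at position 3 in 8 of 10. Cox4i1 had its highest array at position 3 in 10 of 10 groups, as in male controls (11.26, 11.34, 11.45 and 11.25) and female controls (11.21, 11.31, 11.43 and 11.28). Cox7c, a small subunit of complex IV, ran opposite to Atp5mg, highest at position 2 or 3 in 10 of 10 groups and lowest at position 4 in 8, with 11.87, 11.95, 11.98 and 11.85 in female controls. Cox7b was highest at position 4 in 7 groups. The medians of Ndufa2 were 7.88, 8.24, 8.20 and 7.89 at positions 1 to 4.

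**Figure D3:**
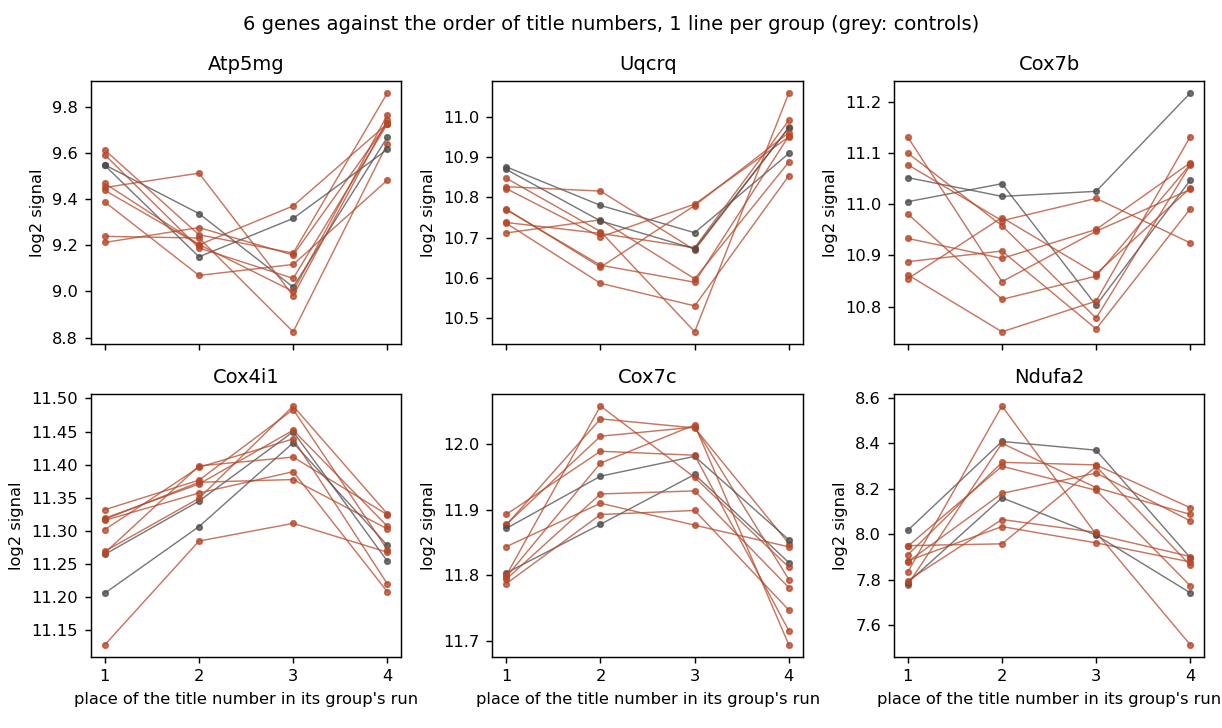
Log2 signal of Atp5mg, Uqcrq, Cox7b, Cox4i1, Cox7c and Ndufa2 (vertical axis) at positions 1 to 4 of the consecutive sample numbers of a group (horizontal axis), 1 line per group of 4 arrays, grey for controls and red for exposed groups. In all 10 groups Atp5mg and Uqcrq are highest at position 4 and Cox4i1 at position 3.

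Members varied less between the arrays of a group than probe sets did in general, but not less than probe sets of similar brightness. The median SD within groups was 0.0946 log2 over the 78 genes and 0.129 over all probe sets, and 64 of 78 members lay below the median of all (50% of all do). Brightness goes along with this as well: between 9.49 and 11.50 log2 the median SD was 0.0869 for members and 0.0817 for all probe sets. Complex I core genes had a median SD of 0.0752, complex II genes 0.0787, complex III genes 0.0997, complex IV genes 0.0961 and ATP synthase genes 0.0893. The largest SDs were those of Ndufa10 (0.305), Atp5mg (0.285) and Ndufa2 (0.225), and the smallest those of Cox6c (0.0354) and Cox8a (0.0371). With the position in the model the SD of Atp5mg was 0.126 and that of Ndufa2 0.133, while Ndufa10 stayed at 0.311.

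**Figure D4:**
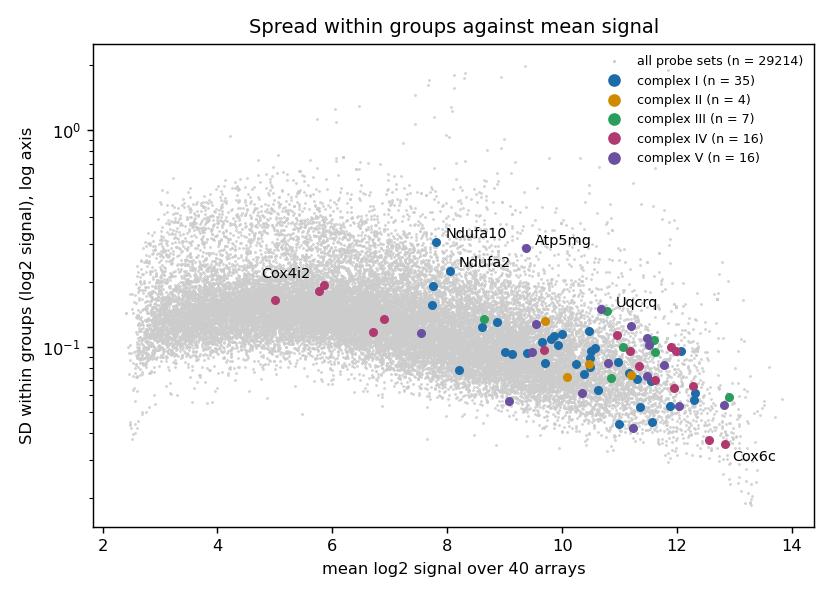
SD within groups (log2 signal, vertical axis on a log scale) against mean signal (log2, horizontal axis) for the 78 genes, marked by complex, over all probe sets in grey. Ndufa10, Atp5mg and Ndufa2 stand above the other members at 0.305, 0.285 and 0.225, and Cox6c lies lowest at 0.0354.

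Pairs of members were compared over the 40 arrays after the group means were subtracted, as a description, since the genes share arrays and positions. The median correlation over 3003 pairs was 0.096, and 349 pairs (11.6%) exceeded 0.5. Pairs of 1 complex had a median of 0.124 and pairs of different complexes 0.086. The closest pair was Atp5mg and Uqcrq (r = 0.91, and 0.51 with the position in the model). The next, Atp5mk of the ATP synthase and Ndufb6 of complex I, was 0.85 both with and without it. Ndufs1 and Sdha followed each other at 0.79, and 0.56 with the position. The lowest correlation of a pair was -0.75.

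The mean of the 78 genes was compared between arrays. Each array's mean deviation of the members from their own means ran from -0.108 to 0.084 log2. The 3 arrays of lowest slope had deviations of -0.039, -0.079 and -0.108, with 26, 16 and 15 of 78 genes above their own mean. A low slope lowers bright probe sets by construction, and 73 of the 78 genes lay above the median signal of all probe sets. Female postnatal 250 ppm replicate 3 had the highest deviation, 0.084, with 67 of 78 genes above their mean and a slope minus 1 of 0.0167. By group the means ran from -0.032 in perinatal 750 ppm males to 0.026 in postnatal 750 ppm males (SD 0.051 and 0.014, n = 4). Controls lay at 0.003 (SD 0.028) in males and 0.006 (SD 0.025) in females.

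**Figure D5:**
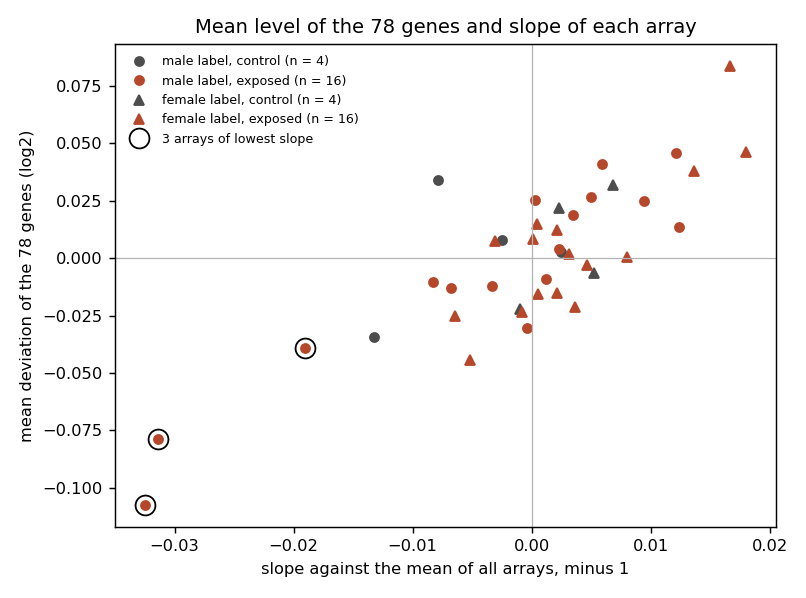
Mean deviation of the 78 genes from their own means over all arrays (log2, vertical axis) against the slope of the array on the mean of all arrays, minus 1 (horizontal axis), for each of 40 arrays. Circles are male and triangles female labels, grey marks controls and red exposed groups, and rings mark the 3 arrays of lowest slope. The array of lowest deviation, male perinatal 750 ppm replicate 1 at -0.108, also has the lowest slope minus 1, -0.0325. Both measures are linked by construction, since most of the 78 genes are brighter than the median probe set.

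For 10 members the array holds more than 1 probe set, which gave a second reading on the same arrays. Over 11 such probe sets the correlation with the one used had a median of 0.94 and ran from -0.10 to 0.98. It was 0.97 for Atp5mk, 0.96 for Cox7a2 and for Ndufs5, and 0.91 for Cox5a. For Ndufv3, a flavoprotein-arm accessory subunit, it was -0.10, and for Atp5mc2, a c-ring gene, it was 0.19. None of the 11 was called in any comparison, and their smallest adjusted p was 0.152, that of Ndufb4. Processed copies of respiratory genes are common in mammalian genomes, so a member's signal may include transcripts of such copies.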

How the data were processed

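The deposited values were log2 signals of 29214 probe sets on 40 arrays, made by the authors with RMA, and RMA and Partek are named without versions per the submitters' processing notes. RMA sets all arrays to 1 distribution, so a shift shared by all genes is removed, and read depth does not apply: the 4 arrays per group limit the precision. Per the labels' protocols 100 ng of RNA was used per sample. Groups came from the sample titles. Symbols came from the platform's annotation, in which 15310 probe sets had 1 symbol, 323 several and 13581 none.

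A model of 10 group means was fitted to all probe sets with limma 3.58.1 (R 4.3.3, empirical Bayes with a variance trend). Each of 22 comparisons and the F test over 8 exposures was adjusted over all 29214 probe sets by Benjamini-Hochberg, and called at an adjusted p under 0.05. The fit was tested on simulated data. Confidence intervals are at 95%. Named genes were those called, the 3 of smallest p in each exposure and the 2 of smallest p in each other comparison, the catalytic core genes, the isoform genes and, in each complex, the members of largest and smallest SD (53 members, of which the text leaves some to counts and ranges). Ndufa2, Ndufa5, Ndufaf1, Ndufb6, Ndufs5, Ndufv3, Cox7c and Atp5mk were named after their values were seen. Members and gene lists were chosen with earlier results of these data known. Alternatives changed the filter, normalization, variance model, probe sets and arrays. Promoter letters were searched with Python 3.11.15.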

Additional observations from a re-analysis of the deposited data

Results flagged for a closer look

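In 18 genes and in the mean of the 78 genes, 190 groups of 4 arrays were tested for a single array standing apart by Dixon's criterion, and 9 were marked. Some genes given array by array above were not among the 18. Chance marks about 1 in 20 groups. Ndufa10 was marked in 2 groups: perinatal 750 ppm male replicate 4 read 8.06 log2 while the other 3 lay between 7.59 and 7.64, and perinatal 750 ppm female replicate 1 read 6.94 while the others lay between 7.87 and 8.01. Ndufb4 was marked for male control replicate 3, at 10.06 against 9.92 to 9.93, and for perinatal 750 ppm female replicate 3, at 9.88 against 10.05 to 10.08. Ndufb2 was marked for perinatal 250 ppm male replicate 2, at 7.68 against 7.48 to 7.50. In perinatal 250 ppm females, replicate 1 of Ndufa6 read 9.09 against 9.17 to 9.18, and replicate 4 of Ndufa12 read 10.49 against 10.31 to 10.34. Replicate 4 of the postnatal 750 ppm females read 9.39 for Atp5pf against 9.63 to 9.65. The mean deviation over the 78 genes was -0.108 in perinatal 750 ppm male replicate 1 against -0.012 to 0.004 in the others. No difference between the sexes in the response to lead was called for a member.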

How the results depend on the processing

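Of the counts of members called, 529 recomputed values lay with the reported count and 9 did not. The side of 0 on which most members lay turned in 3 comparisons: without the 3 arrays of lowest slope, 42 of 78 in place of 20 lay above controls in perinatal 250 ppm males and 34 in place of 47 were higher in exposed females, and without postnatal 250 ppm female replicate 3, 50 in place of 32 lay higher at 750 ppm in postnatal females. Leaving out each array gave 0 to 1 called members for postnatal minus perinatal males at 750 ppm (Ndufb4) and at 250 ppm (Ndufb2), and 0 in the other comparisons. With the sample-number position as a replicate block, chosen after seeing the data, 1 member was called between the windows in 750 ppm males (Ndufb4, 0.31, adjusted p = 0.0450; 0.291% of all probe sets), 1 in all exposed groups against controls (Ndufb10, -0.12, adjusted p = 0.0218; 0.517% of all) and 1 by the F test over exposures (Ndufb2, adjusted p = 0.0440; 0.705% of all). Cyclic loess with that replicate block called 1 in postnatal 750 ppm males (Ndufb10, -0.20, adjusted p = 0.0454), 1 in all exposed groups against controls (Ndufb10, -0.12, adjusted p = 0.00650) and 2 by the F test. It changed no other count of calls. The labels do not say that the numbers pair arrays. Same-position arrays of different groups correlated at a median of 0.075 over all probe sets, with 75 of 180 pairs over 0.1. Over the members the median was 0.315, with 162 of 180 over 0.1. Arrays of other positions and groups had medians of -0.022 over all probe sets and -0.152 over the members. Group means were subtracted first, which ties the values across positions, and the grouping was chosen after a member, Atp5mg, was seen. The cause of the changed calls was not tested. The median difference of the perinatal 250 ppm sex-by-lead comparison was -0.037 without the 3 arrays of lowest slope. A fit to the compared groups only was not run for all exposed groups against controls, which uses every group. The number of arrays per group, 4, limits the precision.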
